A study of Homo sapiens with 20 samples.

Results

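TEDC2 and the genes that build centrioles were followed in K562 cells by RNA-seq, by sequencing of ribosome footprints (Ribo-seq) and by immunoprecipitation of acetylated RNA (acRIP-seq). The set held 10 genes, TEDC2, TEDC1, TUBD1, TUBE1, PLK4, STIL, SASS6, CENPJ, CEP152 and CEP192, of 60616 gene identifiers in the RNA-seq table and 20401 in the Ribo-seq table. All 10 were present in both tables, and all passed the filter on low counts in each comparison. TEDC2 was chosen because its footprints were lower at equal RNA in the knockout, so its RNA, footprint and efficiency values are given as a description, with no test. The other 9 were listed for their role in centriole duplication or in the tubulin delta and epsilon complex.

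K562 is a human leukaemia line with erythroid features. The knockout line was made from it by deleting exon 5 of NAT10, an enzyme that acetylates cytidine in RNA to N4-acetylcytidine (ac4C), with CRISPR-Cas9, and the wild type was the parental line. Both were grown in RPMI-1640 medium with serum and carried no other labelled treatment, apart from the cycloheximide added to the Ribo-seq cultures of both lines before harvest. Each line had 2 RNA-seq and 2 Ribo-seq libraries, and 2 acRIP-seq libraries each for the ac4C antibody, normal IgG and input. The labels do not say whether the knockout line was 1 clone, or whether its libraries came from separate cultures. The p-values therefore reflect differences among these libraries that may be technical.

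A centriole is a barrel of microtubule triplets, and a new one forms beside each old one once per cell cycle. CEP192 and CEP152 bring the kinase PLK4 to the old centriole, PLK4 phosphorylates STIL, and STIL with SASS6 builds the cartwheel from which the new barrel grows. CENPJ, also called CPAP, carries tubulin for its elongation. TUBD1 (delta tubulin) and TUBE1 (epsilon tubulin) form a complex with TEDC1 and TEDC2, and loss of the complex is known to leave centrioles of singlet microtubules that do not last through the next cycle. The genes lie on separate chromosomes, TEDC2 on 16, TEDC1 on 14, TUBD1 on 17, TUBE1 on 6, PLK4 on 4, CENPJ on 13, CEP152 on 15 and CEP192 on 18, except for STIL and SASS6, which both lie on 1.

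The promoters of TEDC2 and TUBE1 are shown because these were the genes whose footprints and whose RNA, in that order, differed most clearly between the lines. The sequences are RefSeq's, on GRCh38.p14, and give the 250 bases before the annotated start in the direction of transcription. The TEDC2 stretch is chr16:2459859-2460108 on the plus strand and the TUBE1 stretch is chr6:112087483-112087732 on the minus strand. Capitals mark the CCAAT box, here in its reverse form ATTGG.
TEDC2: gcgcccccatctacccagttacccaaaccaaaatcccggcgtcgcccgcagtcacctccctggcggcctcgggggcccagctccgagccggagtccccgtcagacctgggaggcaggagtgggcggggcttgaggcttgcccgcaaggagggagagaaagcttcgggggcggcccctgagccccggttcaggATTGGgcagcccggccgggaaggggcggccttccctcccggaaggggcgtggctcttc
TUBE1: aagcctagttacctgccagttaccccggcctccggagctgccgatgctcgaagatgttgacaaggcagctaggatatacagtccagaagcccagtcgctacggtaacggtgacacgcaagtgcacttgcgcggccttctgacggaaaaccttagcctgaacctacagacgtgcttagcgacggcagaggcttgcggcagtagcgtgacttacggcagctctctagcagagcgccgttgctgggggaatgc
The TEDC2 stretch held 1 copy and the TUBE1 stretch none. In windows of 300 bases that reach 50 bases past the start, CCAAT on either strand was found in 6 of the 10 genes, CEP152, CEP192, PLK4, STIL, TEDC1 and TEDC2, and in 39.7% of 27305 RefSeq genes. TTTGAA, the core of the cell cycle genes homology region, was found in 3, CEP152, CEP192 and PLK4, and in 18.2% of genes. GGCGGGA, an E2F-type motif, was found in 4, CEP152, CEP192, PLK4 and TEDC1, and in 18.0% of genes. None of the 3 motifs contains another.

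NAT10, the gene whose exon 5 was deleted, was lower in every knockout library but still had reads there. It had 903 and 925 RNA-seq counts in knockout cells against 1439 and 1837 in wild type cells. In CPM (the read count scaled to the library total) these were 49.9 and 49.3 against 139 and 144. Footprints were 65 and 30, or 55.4 and 48.3 CPM, in knockout against 215 and 171, or 176 and 188 CPM, in wild type. The log2 changes, knockout over wild type, were -1.51 (SE 0.085) for RNA and -1.82 (SE 0.19) for footprints. RNA-seq depth was 18093324 and 18778485 counts in knockout, against 10388717 and 12725302 counts in wild type, and Ribo-seq depth 621287 to 1220308 over 4 libraries. The knockout RNA-seq pair differed by 2.99% more than sampling noise, while the wild type pair gave 12.5 times it, so the knockout pair was summed and counted as 1 sample. All 8 K562 erythroid markers were detected, with summed levels of 1361 to 1383 CPM in knockout and 1268 to 1307 CPM in wild type. Within that sum the embryonic globin gene HBZ (log2 change 2.05), the fetal globin gene HBG1 (1.17) and TAL1 (0.53) rose in the knockout, and the transcription factor genes LMO2 (-0.70) and GATA1 (-0.42) fell, with edgeR adjusted p values of 1.61e-05 to 0.0203. Of 9 markers of other cell types MS4A1 was at 0 in all libraries, and the summed level was 53.9 to 57.5 CPM in knockout and 73.7 to 79.5 CPM in wild type, most of it EPCAM. In the tests that follow a gene was called when its Benjamini-Hochberg adjusted p was under 0.05, and log2 changes are knockout over wild type.

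TEDC2 (ENSG00000162062.15) RNA did not separate the lines. It gave 701 and 766 counts, 38.7 and 40.8 CPM, in knockout cells, against 417 and 458 counts, 40.1 and 36.0 CPM, in wild type cells. The libraries overlapped, at 39.8 CPM in the summed knockout sample and a mean of 38.1 ± 2.93 CPM in wild type (SD, n = 2). The fitted log2 change was 0.07 (SE 0.10), and the ratio of summed counts over library totals was 1.05, with a 95% interval of 0.966 to 1.14 that covers counting error only. An antisense gene, TEDC2-AS1, had 9 and 7 counts in knockout cells and 3 and 5 in parental cells. No source used here says whether the counting used strand, so its reads and those of TEDC2 may not be separated. Bulk levels such as these cannot tell fewer cells from less RNA per cell.

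TEDC2 footprints, the ribosome-protected fragments, were lower in both knockout libraries. They numbered 68 and 33, or 57.9 and 53.1 CPM, in knockout cells, against 163 and 126, or 134 and 138 CPM, in wild type cells. The lines did not overlap, at 55.5 ± 3.41 CPM in knockout and 136 ± 3.31 CPM in wild type (SD, n = 2 each). Of 8887 genes tested, 24.2% likewise had lower footprint CPM in both knockout libraries than in both wild type libraries. The ratio of summed counts over library totals was 0.415 (counting interval 0.328 to 0.522), and the fitted log2 change was -1.31 (SE 0.19). Footprints per unit of RNA were 1.29 and 1.18 in knockout, against 3.17 and 3.29 in wild type. Translational efficiency, the change of footprints beyond that of RNA, had a log2 change of -1.45 (SE 0.19). These are the values TEDC2 was chosen on.

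**Figure D1:**
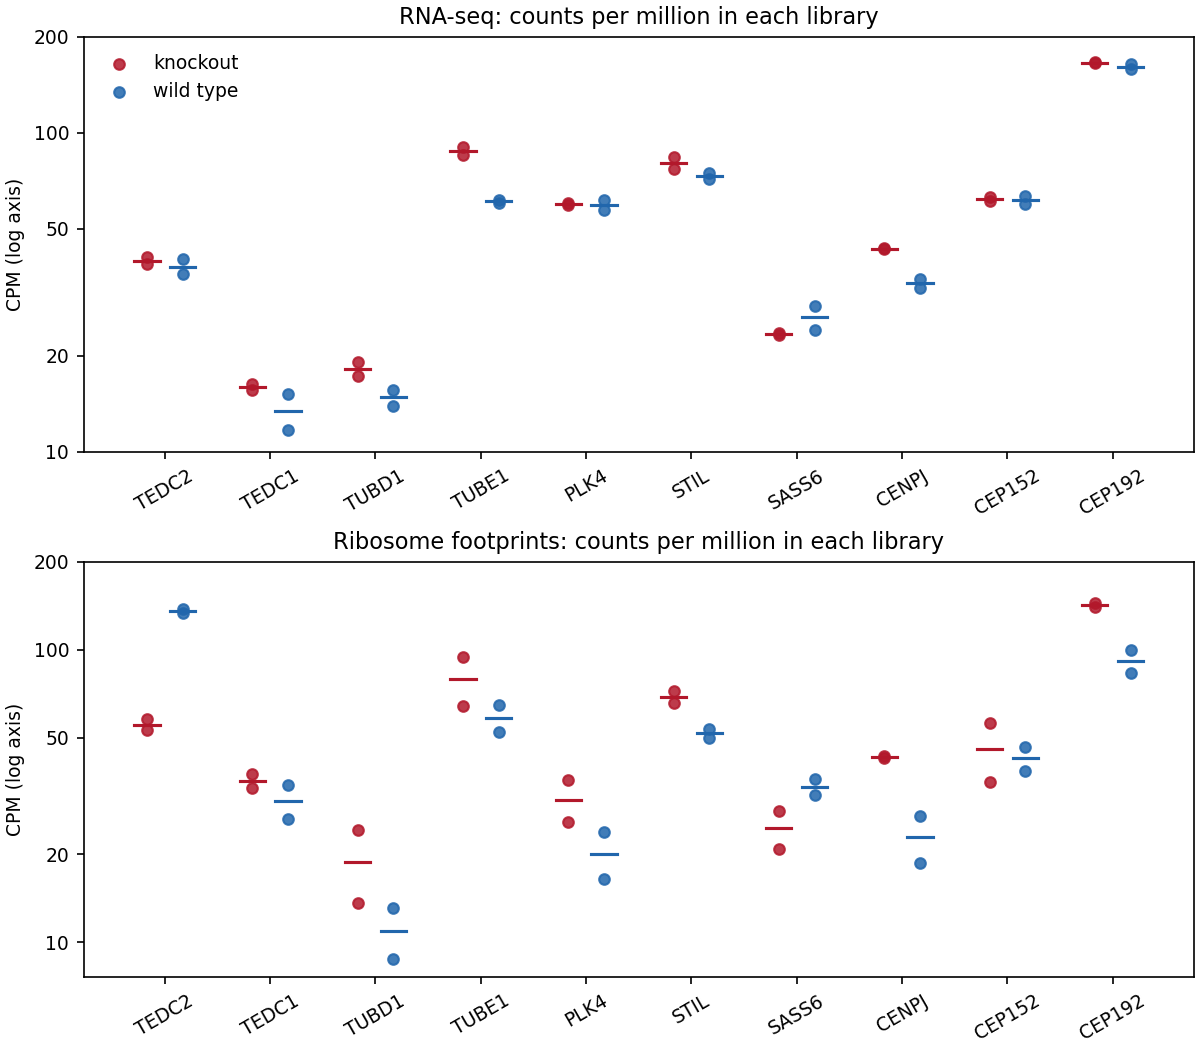
Levels of the 10 genes in each library, in CPM on a log axis, for RNA-seq (top) and Ribo-seq footprints (bottom), with knockout left of wild type; points are libraries and bars are means of 2. TEDC2 RNA points overlap between the lines, while its footprints sit at 53.1 and 57.9 CPM in knockout and at 134 and 138 CPM in wild type.

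None of the partners of TEDC2 in the tubulin complex had lower footprints in both knockout libraries. TEDC1, which binds TEDC2, had 16.3 and 15.6 CPM of RNA in knockout against 15.2 and 11.7 CPM in wild type, a log2 change of 0.26 (SE 0.17, adjusted p = 0.381, edgeR quasi-likelihood). Its footprints, 44 and 21 counts or 37.5 and 33.8 CPM in knockout against 42 and 24 counts or 34.4 and 26.3 CPM in wild type, overlapped, with a log2 change of 0.19 (SE 0.27, 95% interval -0.40 to 0.79). Its efficiency change was -0.13 (95% interval -0.81 to 0.54). TUBD1 had 19.1 and 17.3 CPM of RNA in knockout against 14.0 and 15.6 CPM in wild type (log2 change 0.29, SE 0.16, adjusted p = 0.263, edgeR). TUBD1 had the fewest footprints of the set, 16 and 15 in knockout, against 16 and 8 in wild type. These came to 13.6 and 24.1 CPM in knockout, against 13.1 and 8.78 CPM in wild type. Its footprint log2 change was 0.63 (SE 0.45), and the 95% interval of -0.35 to 1.61 was the widest of the 9. Changes anywhere within that interval remain compatible with these counts.

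TUBE1 (ENSG00000074935.14) RNA rose in the knockout. It had 1539 and 1691 counts, 85.1 and 90.0 CPM, in knockout cells, against 628 and 786 counts, 60.5 and 61.8 CPM, in wild type cells, so every knockout library was above every wild type library. The log2 change was 0.52 (SE 0.079, 95% interval 0.34 to 0.70, adjusted p = 0.00516 by edgeR's quasi-likelihood test). TUBE1 footprints were 111 and 40, or 94.6 and 64.4 CPM, in knockout, against 64 and 59, or 52.4 and 64.7 CPM, in wild type, and the lines overlapped. Their log2 change of 0.46 (SE 0.24) was close in size to that of the RNA but did not pass the test (adjusted p = 0.297, edgeR). The efficiency change was -0.10 (95% interval -0.62 to 0.42).

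The kinase PLK4 and the scaffolds that recruit it had RNA levels that overlapped between the lines or nearly did so. PLK4 RNA was 60.2 and 59.4 CPM in knockout, against 57.1 and 61.8 CPM in wild type, and the log2 change was 0.01 (SE 0.098, 95% interval -0.22 to 0.24). PLK4 footprints, 42 and 16 in knockout, against 29 and 15 in wild type, came to 35.8 and 25.8 CPM against 23.8 and 16.5 CPM, with no overlap but a change that missed the threshold (0.60, SE 0.33, adjusted p = 0.318, edgeR). CEP152 RNA was 62.8 and 61.1 CPM in knockout, against 63.5 and 59.7 CPM in wild type (log2 change 0.01, SE 0.081), and its footprints, 56.2 and 35.4 CPM in knockout, against 46.7 and 38.4 CPM in wild type, overlapped too (log2 change 0.12, SE 0.27). CEP192, the most counted of the set, had 166 and 165 CPM of RNA in knockout, against 158 and 164 CPM in wild type, a log2 change of 0.04 (95% interval -0.14 to 0.23). CEP192 footprints were 165 and 90, or 141 and 145 CPM, in knockout, against 122 and 76, or 100 and 83.4 CPM, in wild type. Their log2 change of 0.59 (SE 0.18, 95% interval 0.21 to 0.98) did not pass after adjustment (adjusted p = 0.0759, edgeR), and the efficiency change of 0.47 (SE 0.20) had an adjusted p of 0.479.

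The cartwheel genes differed in sign and neither passed a test. STIL had 83.8 and 76.9 CPM of RNA in knockout, against 71.8 and 74.9 CPM in wild type, and the log2 change was 0.13 (SE 0.082, adjusted p = 0.341, edgeR). STIL footprints were 72.4 and 66.0 CPM in knockout, against 50.0 and 53.8 CPM in wild type (log2 change 0.40, SE 0.22, adjusted p = 0.319, edgeR). SASS6, which forms the hub of the cartwheel, was the only gene of the other 9 with both its RNA and its footprints lower in every knockout library. Its RNA was 23.6 and 23.3 CPM in knockout, against 24.2 and 28.7 CPM in wild type (log2 change -0.18, SE 0.15, 95% interval -0.53 to 0.18). Its footprints were 28.1 and 20.9 CPM in knockout, against 36.1 and 31.8 CPM in wild type (log2 change -0.46, SE 0.29, 95% interval -1.09 to 0.17). The elongation factor CENPJ had 43.4 and 43.2 CPM of RNA in knockout, against 32.7 and 34.9 CPM in wild type, and 42.6 and 43.5 CPM of footprints against 27.0 and 18.7 CPM. Neither assay overlapped between the lines, yet the log2 changes of 0.36 (SE 0.11) for RNA and 0.85 (SE 0.29) for footprints missed the threshold, with adjusted p values of 0.0744 and 0.107 (edgeR). Whether CENPJ passed depended on the fit. Its RNA passed with the filter on low counts removed (adjusted p = 0.00681, edgeR). It also passed with the knockout libraries kept apart (0.00766, edgeR), a fit that counts as 2 samples a pair taken here as 1. With DESeq2 its RNA did not pass (adjusted p = 0.457, Wald test). Footprint counts behind these values were small, from 13 for SASS6 to 85 for STIL in a library.

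Efficiency changes of the other genes had wide intervals. They were 0.47 for CEP192 (95% interval 0.05 to 0.90), 0.23 for TUBD1 (-0.74 to 1.20), 0.53 for PLK4 (-0.17 to 1.23), 0.06 for CEP152 (-0.51 to 0.63), 0.20 for STIL (-0.26 to 0.67), -0.35 for SASS6 (-1.04 to 0.35) and 0.42 for CENPJ (-0.21 to 1.04). The CEP192 interval lay above 0 before adjustment over all genes, and the other 6 held 0.

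**Figure D2:**
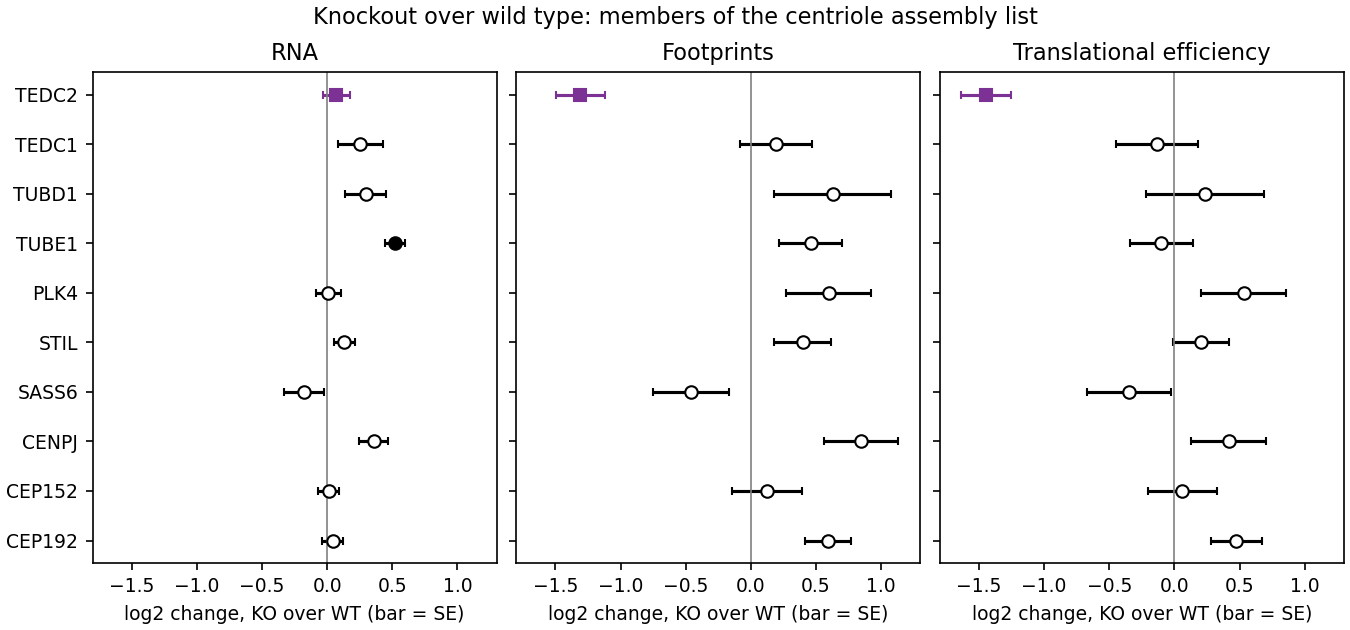
Log2 changes, knockout over wild type, of RNA, footprints and translational efficiency for the 10 genes; bars are the standard error of the fit, the square is TEDC2 (no test), the filled circle passed an adjusted p of 0.05 and open circles did not. TUBE1 RNA at 0.52 is the filled circle, and TEDC2 stands at -1.31 for footprints and -1.45 for efficiency.

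Counted over the 9 genes other than TEDC2, 1 passed the RNA test (TUBE1), while 14.0% of the 16277 genes tested were called, 5.17% as higher and 8.79% as lower. At an unadjusted p under 0.05 there were 2, and DESeq2 called 1. None of the 9 passed the footprint test, in which 5.34% of 8887 genes were called, 1.47% as higher and 3.87% as lower; 2 had an unadjusted p under 0.05 and DESeq2 called 0. None of the 9 passed the efficiency test, with 1 at an unadjusted p under 0.05. In that test 0.00971% of 10299 genes were called, which is 1 gene. TEDC2 was among the genes fitted, but no test outcome is given for it because it was chosen on this contrast. The count over all genes ran from 0 to 5 when each library was left out. The share of the 9 called was thus near or under that of all genes in each comparison.

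The changes of these 9 genes lay mostly above 0. The RNA change was positive in 8 of 9, with a median of 0.13 against a median of -0.00065 over all genes tested. The footprint change was positive in 8 of 9, with a median of 0.46 against 0.0047 over all genes. The efficiency change was positive in 6 of 9, with a median of 0.20 against -0.057. Footprint CPM was higher in both knockout libraries than in both wild type libraries for 5 of 9 genes (27.6% of all genes), lower for 1 (24.2%) and overlapping for 3. RNA CPM was higher without overlap for 6 of 9 (33.1% of all genes), lower for 1 and overlapping for 2. The knockout pair counts as 1 sample here too. Footprints per unit of RNA were higher for 4 of 9 (21.6%), lower for 1, SASS6, and overlapping for 4. Shares of all genes with lower RNA CPM or lower footprints per unit of RNA were not computed. These counts describe a list whose members were chosen, and carry no test.

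**Figure D3:**
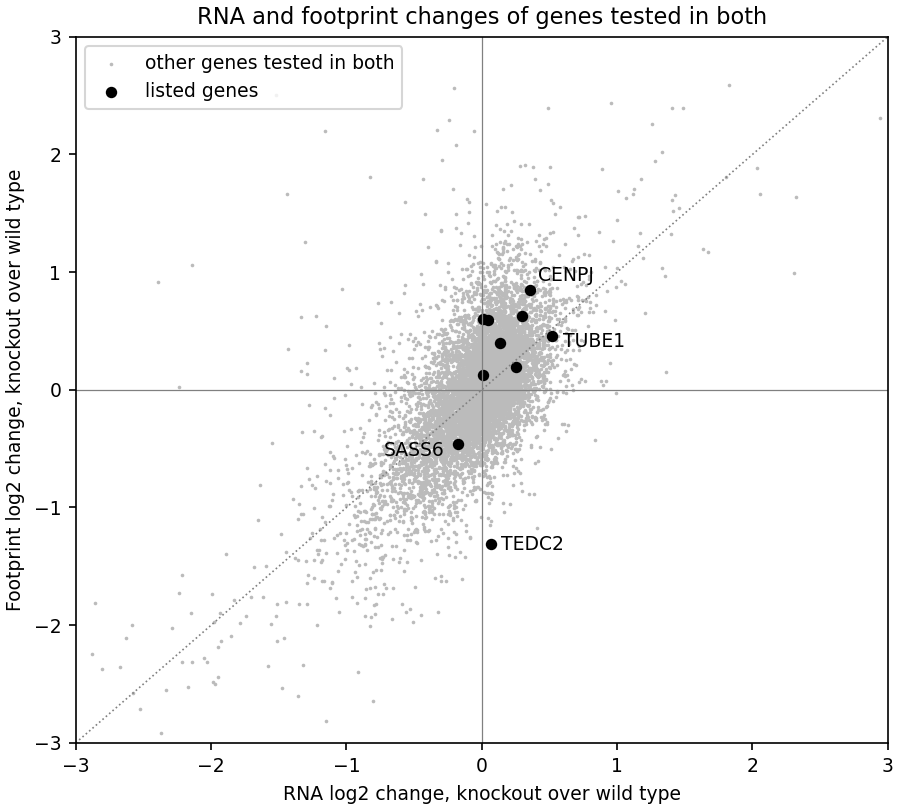
RNA log2 change (x axis) against footprint log2 change (y axis), knockout over wild type, for 8817 genes tested in both (grey) and the 10 listed genes (black); the dotted line marks equal changes, and 16 genes lie beyond the axes at 3. TEDC2 lies at 0.07 and -1.31, apart from the other 9 black points, whose footprint changes run from -0.46 to 0.85.

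Efficiency changes moved with transcript length in these libraries. Over 8013 of 8887 genes with a length in the peak lists (90.2%), Spearman's rho of length with the efficiency change was 0.197, with the footprint change 0.126 and with the RNA change -0.057. These are correlations across genes that share the same 7 samples, and genes are not independent replicates. The median efficiency change was -0.15 for 1849 genes with transcripts of up to 2000 nucleotides, -0.11 for 2943 genes from there to 4000, -0.03 for 2513 genes up to 8000 and 0.11 for 708 longer ones. Median footprint changes of these groups were -0.02, -0.06, 0.03 and 0.22 in that order. The TEDC2 transcript (TEDC2-210, the longest coding one listed) was the shortest, at 1911 nucleotides, among the genes of the set with a coding transcript in the peak lists. TEDC1 had none. TUBE1 (2225) and TUBD1 (2491) followed, then PLK4 (3838), SASS6 (3848), CENPJ (5082), STIL (5225), CEP152 (5560) and CEP192 (7960). The part of length in the members' footprint values was not tested.

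Per kilobase of these transcripts the RNA levels of the genes could be ordered. TUBE1 was highest, at 39.4 CPM per kilobase in the summed knockout sample and 27.2 and 27.8 in wild type. TEDC2 (20.8 in knockout, 21.0 and 18.8 in wild type) and CEP192 (20.8 in knockout, 19.9 and 20.6 in wild type) came next and did not differ beyond the spread. PLK4 (15.6 in knockout, 14.9 and 16.1 in wild type) and STIL (15.4 in knockout, 13.7 and 14.3 in wild type) followed, close to each other, and then CEP152 (11.1 in knockout, 11.4 and 10.7 in wild type). CENPJ, TUBD1 and SASS6 were lowest, between 6.09 and 8.52 in knockout and between 5.60 and 7.45 in wild type. TEDC1 had no coding transcript in the peak lists and hence no such level.

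The genes most like TEDC2 across the 8 libraries were SRPRB, CD55, PGRMC1, CTSZ and CYB5R3. Likeness was the Euclidean distance of log2 CPM, with a pseudocount of 0.5 CPM and centred within each assay. The candidates were 1804 genes of similar level in both assays. The distances were 0.496 for SRPRB, 0.542 for CD55, 0.551 for PGRMC1, 0.568 for CTSZ and 0.576 for CYB5R3, against a median of 1.33 over all candidates. SRPRB had 69 and 30 footprints in knockout, against 109 and 92 in wild type, with 571 and 612 RNA counts in knockout, against 366 and 405 in wild type. PGRMC1 had 33 and 22 footprints in knockout, against 89 and 68 in wild type, with 512 and 548 RNA counts in knockout, against 421 and 439 in wild type. These are raw counts, not scaled to library totals. RNA-seq totals were larger in knockout (18093324 and 18778485) than in wild type (10388717 and 12725302). Higher RNA counts in knockout therefore do not mean higher RNA levels. Efficiency changes were -0.83 for SRPRB, -0.81 for CD55, -0.99 for PGRMC1, -0.69 for CTSZ and -0.72 for CYB5R3. The genes were picked for RNA and footprint profiles close to those of TEDC2 in the same 8 libraries. Their negative efficiency changes therefore follow from that selection and are not a separate result. SRPRB anchors the signal recognition particle receptor at the endoplasmic reticulum, CD55 is a surface complement regulator, PGRMC1 a membrane-bound heme-binding protein, CTSZ a lysosomal protease and CYB5R3 a reductase; none was in the lists of centriole genes.

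In acRIP-seq, peaks were called on transcripts, in 1 list for the ac4C antibody and 1 for IgG per line, each from merged libraries against input, so there is no replicate error and nothing here was tested. The fold of a peak is the authors' enrichment over input. The lists of the lines were called separately and differ in size, with 162944 lines for the antibody and 147469 for IgG in knockout, and 92194 for the antibody and 93329 for IgG in wild type, so line and list cannot be told apart. Antibody peaks stood on transcripts of 9 of the 10 genes in knockout, where 70.7% of the 16277 genes tested for RNA had one, and on 6 of 10 in wild type (53.2%). IgG peaks stood on 9 of 10 in knockout (68.2%) and on 6 of 10 in wild type (54.3%). The members' shares were thus near those of all genes in wild type, and IgG marked as many members as the antibody.

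TEDC2 had no peak in either knockout list and had peaks in both wild type lists. The wild type antibody list held 7 TEDC2 peaks on 6 transcripts and the wild type IgG list held 4 on 4 transcripts, with folds of no more than 2.51 in either. Among all peaks of the 10 genes, the lowest antibody fold was 2.09 in knockout and 1.58 in wild type. The lowest IgG fold was 2.28 in knockout and 1.72 in wild type. Some TEDC2 folds lay below these knockout values, and the part of peak calling in the missing knockout peaks was not tested. On TEDC2-210 the antibody peak ran from nucleotide 77 to 1103 (fold 2.19) and the IgG peak from 854 to 1103 (fold 1.75), so the end of the antibody peak coincided with an IgG peak. Antibody peaks without an overlapping IgG peak stood on a transcript annotated as subject to nonsense-mediated decay, at 1116 to 1372 (fold 2.07), and on a transcript annotated as a retained intron, at 848 to 1312 and 1824 to 2072. Transcripts of 1 gene share sequence and therefore reads, so these peaks are not independent. Peaks in wild type and none in knockout were seen for 660 of 16277 genes (4.05%), and among 8657 genes with a wild type antibody peak 596 (6.88%) had none in knockout. The reverse, peaks in knockout alone, was seen for 21.2% of genes and for TEDC1, TUBD1 and CEP192 of this set.

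**Figure D4:**
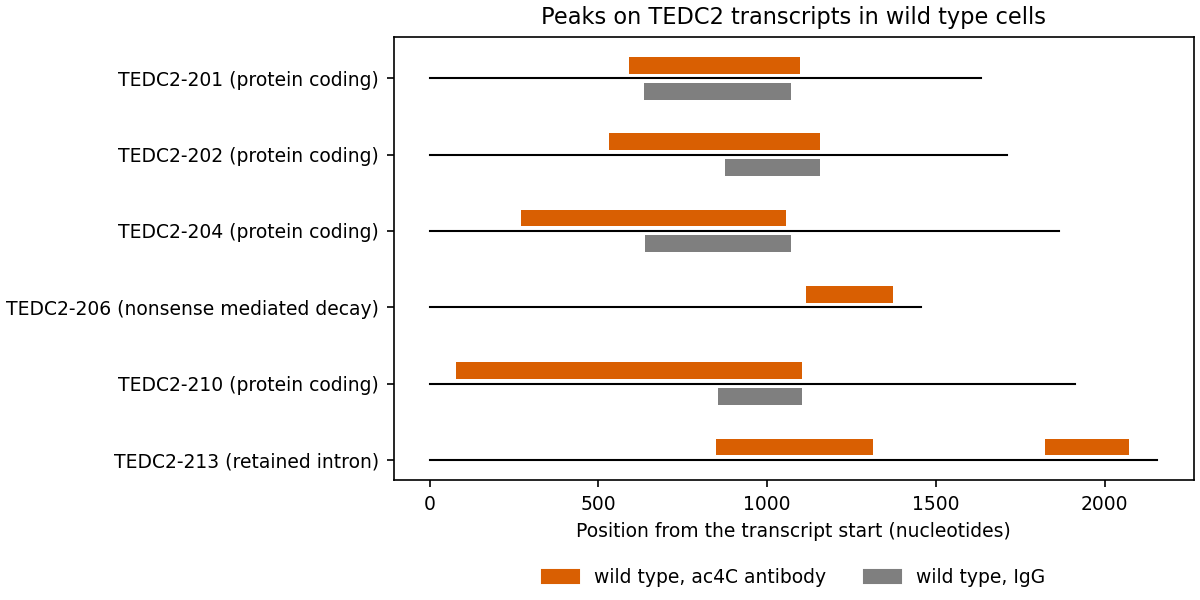
Peaks on TEDC2 transcripts in wild type cells, with position from the transcript start in nucleotides on the x axis and 1 row per transcript with its annotated type; orange bars above each line are ac4C antibody peaks and grey bars below are IgG peaks. IgG peaks overlap the antibody peaks on 4 coding transcripts, and the knockout lists held no peak for this gene.

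The other genes gave no common pattern of the antibody over IgG. The highest folds were those of CEP152 in knockout, 35.1 with the antibody and 28.9 with IgG, at overlapping places on CEP152-201 (nucleotides 3984 to 4550 for the antibody and 3859 to 4493 for IgG). TUBD1 reached 11.7 with the antibody and 14.4 with IgG in knockout, and TEDC1 12.2 with the antibody and 11.7 with IgG, on a retained-intron transcript. TUBE1 had 4 antibody and 7 IgG peaks in knockout, with folds of up to 6.99 for the antibody and 14.8 for IgG, and 10 antibody and 9 IgG peaks in wild type, with folds of up to 7.48 for the antibody and 7.78 for IgG. On the coding transcript TUBE1-202 the wild type antibody peak, 33 to 2116, and the IgG peak, 26 to 2119, covered nearly its whole length. SASS6 had 3 antibody and 5 IgG peaks in knockout and 2 of each in wild type, and CENPJ 1 of each in knockout and 3 antibody and 2 IgG peaks in wild type, all with folds of no more than 4.41. An antibody peak free of IgG overlap was found in knockout for 4 of 10 genes, CEP152, CEP192, PLK4 and STIL (35.0% of all genes), and in wild type for 3 of 10, CENPJ, STIL and TEDC2 (11.2%). Counting the longest coding transcript alone left 1 gene in knockout and 1 in wild type.

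**Figure D5:**
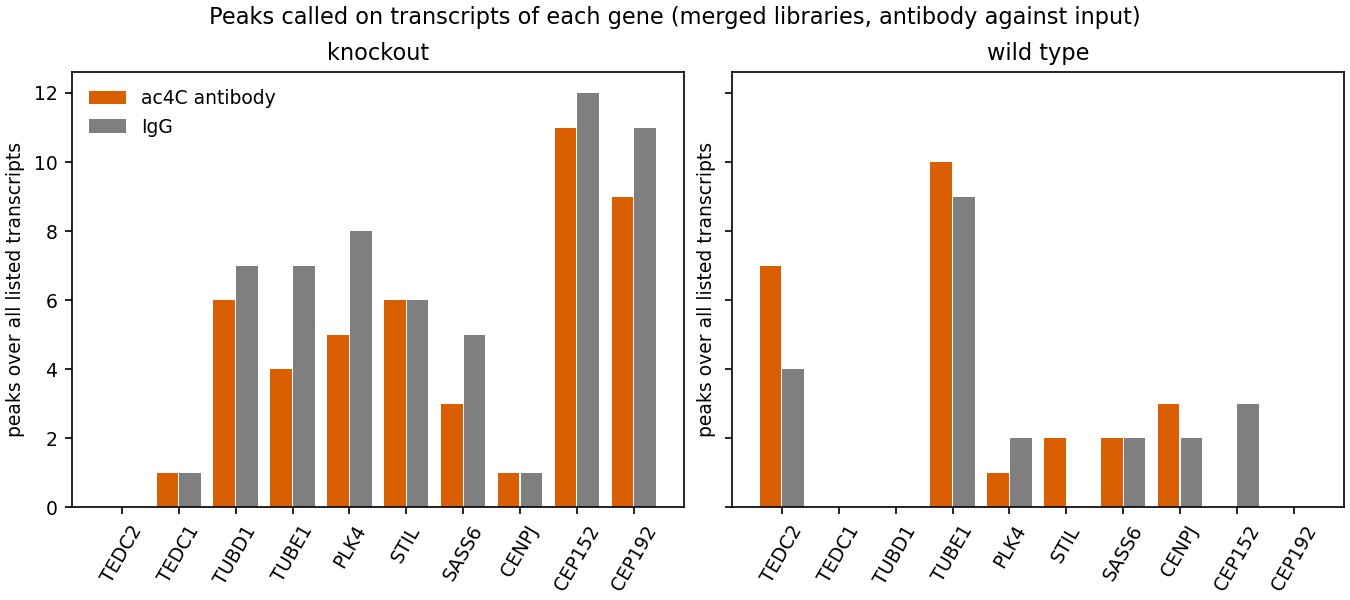
Number of peaks over all listed transcripts of each gene for the ac4C antibody (orange) and IgG (grey) in knockout (left) and wild type (right); each bar is 1 merged list, with no replicate. IgG bars are as high as or higher than antibody bars for all 9 genes with peaks in knockout, and TEDC2 has bars in wild type alone.

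The lists of wider centriole and centrosome genes gave 6 calls in RNA, where 14.0% of all genes tested were called. Of 30 genes of the centriole core, length control and distal end, HYLS1, needed to prime centrioles for cilia, rose in RNA (1.00, SE 0.19) and MDM1, a microtubule-binding inhibitor of duplication, fell (-1.09, SE 0.15), with a median change of 0.01. Of 29 genes of the pericentriolar material, NIN, which anchors microtubules, rose (0.89) and HAUS6, an augmin subunit, fell (-0.87). Of 15 satellite genes SSX2IP rose (0.45), and of 16 genes of PLK4 turnover and centrosome counting PIDD1, a platform for caspase activation, fell (-0.63). These changes had adjusted p values of 0.00132 to 0.0167 by edgeR's quasi-likelihood test.

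Footprints of the same lists gave 4 calls, all higher in the knockout, where 1.47% of all genes tested were called as higher and 3.87% as lower. CEP350 rose (1.00, SE 0.22, 1 of 27 genes of the core list), NIN and AKAP9, a scaffold of the Golgi and centrosome, rose (1.87 and 1.22, 2 of 26), SSX2IP rose (1.24, 1 of 14), and no gene fell. Of the 16 genes of PLK4 turnover none was called, and the largest value was 0.90 for ANKRD26 (adjusted p = 0.298, edgeR). Median footprint changes were 0.23 for the core, 0.10 for the pericentriolar material, 0.15 for satellites and 0.20 for PLK4 turnover, against 0.0047 over all genes. Over the 708 genes with transcripts longer than 8000 nucleotides the median was 0.22. The part of transcript length in the values of these lists was not tested. NIN and SSX2IP were thus called in both assays. No gene of these lists was called for efficiency; the largest values were 1.04 for CNTROB, 1.27 for HAUS4, 0.72 for SSX2IP and 0.87 for ANKRD26, with adjusted p values of 0.454 to 0.540 (edgeR).

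Among 18 alpha and beta tubulins and their folding cofactors, TUBB4A (-1.95) and TUBA4A (-0.79) fell and TUBA1B (0.41, adjusted p = 0.0480) rose in RNA, 3 of 18 against 14.0% of all genes. Footprints of TUBB4A (-2.44) and TUBA4A (-1.18) fell as well, 2 of 15 tested against 5.34% of all genes called, with adjusted p values of 0.0479 and 0.0198 (edgeR). Tubulin genes of these families are near-identical in their coding parts, so reads may be split between copies and these values are uncertain. The median efficiency change of the list was -0.22, with 13 of 16 below 0 and none called. Changes ran from -0.60 to 1.65, and the largest at an average log2 CPM of 3 or more was -0.45 for TUBB2A. Of 25 S phase and mitotic genes CDK1 (0.31), RRM2 (0.35) and AURKA (0.27) rose in RNA and CDT1, the licensing factor, fell (-0.73), 4 of 25 against 14.0% of all genes, with a median of 0.02. CDK1 alone was called among their footprints (0.64, adjusted p = 0.0444, edgeR), 1 of 25 against 5.34% of all genes. No gene of this list was called for efficiency, the largest value being -0.43 for FZR1, an activator of the anaphase-promoting complex, and the median -0.08.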

How the data were processed

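RNA-seq and Ribo-seq values were whole-number read counts per gene as deposited, made from alignments with duplicate reads removed, per the file headers. Without versions, the submitters' processing notes list STAR, featureCounts, SAMtools, Trimmomatic, cutadapt and DESeq2, the acRIP-seq tools Bowtie2, MACS2, bedtools and ChIPseeker, and the build GRCh38.p13. Removing duplicates lowers counts of abundant short fragments most. The authors deposited peak lists from merged libraries, holding each peak's fold over input and its −log10 q-value. The 10 genes and all lists were chosen with earlier results of these data known.

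The tests used edgeR 4.0.16 under R 4.3.3 (TMM scaling, filterByExpr, quasi-likelihood F test, Benjamini-Hochberg over all genes tested, threshold 0.05), after leaving out 44 RNA-seq and 18 Ribo-seq identifiers of the pseudoautosomal Y copies. Translational efficiency was the interaction of assay and genotype. With the knockout RNA-seq pair summed, the fits had 1 (RNA), 2 (footprint) and 3 (efficiency) residual degrees of freedom. The single knockout RNA sample is taken to vary as the wild type does. The biological coefficient of variation was 9.12%, 12.0% and 7.69% in that order. CPM divides counts by the library total. The scripts were tested on simulated data. All members were named in every comparison; of each other list up to 4 called genes by lowest adjusted p were named, or else the gene with the largest change at a mean log2 CPM of at least 3. Markers of cell types stood outside that rule and were described as a check of the line. Representative transcripts were the longest coding ones in the peak lists, and an antibody peak counted as free of IgG when no IgG peak of that line overlapped it by 1 base. Alternatives were no filter, DESeq2 1.42.0, knockout libraries kept apart, a replicate block, leaving out each library, and for peaks a −log10 q of at least 5, a larger overlap and the representative transcript alone.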

Additional observations from a re-analysis of the deposited data

How the results depend on the processing

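Of the 9 genes other than TEDC2, the RNA count of 1 became 2 with no filter, with the knockout libraries kept apart and with the replicate block, since CENPJ joined TUBE1. The footprint count of 0 became 2 with the replicate block (CENPJ, adjusted p = 0.0222, and CEP192, 0.00261), and the efficiency count stayed at 0 in every fit that gave one; DESeq2 gave no adjusted p there. TUBE1 RNA kept its call in all 7 alternatives, with adjusted p values of 1.10e-08 to 0.0258. Over all genes the RNA count of 2271 was 3513 with no filter, 1042 with DESeq2, 5476 with libraries apart and 4983 with the block. The footprint count of 475 was 889 with no filter, 178 with DESeq2 and 1594 with the block, and leaving out 1 library gave 264 (without wild type Ribo-seq replicate 1) to 716 (without knockout replicate 2). The efficiency count of 1 was 71 with no filter, 24 with DESeq2, 7 with libraries apart and 5 with the block. It was 0 without knockout RNA-seq or Ribo-seq replicate 2 or either wild type replicate 1, 5 without knockout Ribo-seq replicate 1 and 3 without wild type Ribo-seq replicate 2. The TEDC2 efficiency change ran from -1.55 to -1.28, with -1.28 reached without knockout Ribo-seq replicate 2. Antibody-only genes in knockout fell to 2 at a −log10 q of at least 5 and to 1 on representative transcripts, and in wild type to 1 on representative transcripts. The causes were not tested.

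Leaving out a wild type RNA-seq library left the RNA fit no residual degrees of freedom, so it gave no count. Same-numbered libraries did not deviate together in every pairing. Over 8873 genes, the deviations of knockout and wild type correlated at 0.207 in Ribo-seq and at 0.017 in RNA-seq. Those of RNA-seq and Ribo-seq correlated at -0.012 in knockout and -0.175 in wild type. The numbers were not taken as pairs, so the main footprint test does not model a replicate effect shared by the Ribo-seq libraries of both lines. Footprint counts of 8 to 165 per library, the summed knockout RNA sample and unreplicated peak lists limit what could be detected. Signs of uncalled changes turned for CEP152 footprints in 2 of 8 alternatives, for the efficiency of TUBE1 in 4, TEDC1 in 3 and CEP152 in 1 of 12, and for the RNA of PLK4 and CEP152 in 1 of 7 each. No called direction turned.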
